A study of Mus musculus with 2 samples.

Results

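Transcripts of 10 genes of the MHC class I pathway were followed in leukocytes of YUMM3.3 melanomas: the heavy chains H2-K1, H2-D1, H2-Q6, H2-Q7 and H2-T23, the light chain B2m, the peptide loading genes Tap1 and Tapbp, and the immunoproteasome subunits Psmb8 and Psmb9. They were taken by symbol from the 12584 genes of the count matrix, where all 10 were present. YUMM3.3 is a mouse melanoma line that carries an activated Braf allele and lacks Cdkn2a. NTT tumours grew from the targeted therapy-naive line. RTT tumours grew from a resistant derivative of that line, selected under inhibitors of the MAPK pathway. Both lines were injected into C57BL/6 mice and the tumours were taken on day 12, from which live CD45+ cells were sorted for 3′ single-cell RNA sequencing. Each group held 1 tumour and 1 library, so the line, the mouse, the sort and the library cannot be told apart in any difference between NTT and RTT, and no test between groups was possible. The tumour cells themselves were outside the sort, and all values below belong to immune cells of the host, except for the few cells whose label names another type.

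A class I molecule joins a heavy chain to B2m, the invariant light chain, and holds a short peptide on the cell surface for CD8 T cells to read. H2-K1 and H2-D1 encode the classical heavy chains of C57BL/6 mice. H2-Q6, H2-Q7 and H2-T23 encode non-classical heavy chains, and the product of H2-T23, Qa-1, is the ligand of the NK cell receptor CD94/NKG2A. Peptides are cut by the proteasome, in which Psmb8 and Psmb9 take the place of the constitutive catalytic subunits Psmb5 and Psmb6 in cells exposed to interferon. Tap1 forms part of the pump that carries peptides into the endoplasmic reticulum, and Tapbp encodes tapasin, which holds the empty class I molecule beside that pump. Interferon-gamma raises nearly all of these genes, in part through Irf1 and through Nlrc5, the transactivator of class I promoters. Some dendritic cells can use the same machinery to display peptides taken from dying tumour cells. For inflammatory monocytes the study reports another route, shown in a different melanoma line. There they acquired whole class I molecules, with the peptide already bound, from tumour cells. Levels of these genes in monocytes therefore do not measure display of tumour peptides.

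The members lie close together in the genome. In the GENCODE annotation of GRCm38, the assembly that mm10 names, 9 of the 10 members lay within 2.12 Mb of chromosome 17, in the MHC, at chr17:33915899-36032855. B2m stood apart at chr2:122147686-122153083. H2-K1 was annotated at chr17:33996017-34000347 on the minus strand and H2-D1 at chr17:35262730-35267499 on the plus strand. H2-Q6 (chr17:35424850-35430055) and H2-Q7 (chr17:35439155-35443773) are neighbours on the plus strand. Their longest annotated transcripts were identical at 89.5% of 1346 aligned bases, so reads may not always tell them apart. The same holds for H2-K1 and H2-D1, identical at 91.1% of 1578 bases, and for H2-D1 and H2-Q7, at 86.6% of 1515. The values of these 4 heavy chains, and their order, are given with that limit. Whole transcripts were aligned and not the 3′ ends that were read, so the size of the limit was not tested.

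Upstream sequence is shown for 7 members because it shows where the letters searched for occurred or were incomplete. The 250 bases before the RefSeq transcript start were read 5′ to 3′ on GRCm38.p6. RefSeq and GENCODE starts were not always the same. By the GENCODE positions the stretches of H2-D1 and Psmb8 (chr17:34197721-34201454) lie inside the gene. That of H2-T23 (chr17:36029773-36032855) lies partly inside it. Capitals mark the class I kappa B site (H2-K1, H2-D1 and H2-Q6), the interferon-stimulated response element (H2-T23 and B2m, GAAA and GAAA with NN between them) or the gamma-activated sequence (Psmb8, TTCNNNGAA). Each was searched on both strands. H2-Q7 is shown as the near copy of H2-Q6 that lacked an exact match to the 11 kappa B letters. The same stretch of H2-Q7 falls a C short of them, so H2-Q7 was not shown to lack the site. H2-K1 was read from the minus strand of chr17:34000348-34000597, H2-D1 from chr17:35262844-35263093, H2-Q6 from chr17:35424600-35424849, H2-Q7 from chr17:35438905-35439154, H2-T23 from the minus strand of chr17:36032702-36032951, B2m from chr2:122147437-122147686 and Psmb8 from chr17:34197945-34198194.
H2-K1: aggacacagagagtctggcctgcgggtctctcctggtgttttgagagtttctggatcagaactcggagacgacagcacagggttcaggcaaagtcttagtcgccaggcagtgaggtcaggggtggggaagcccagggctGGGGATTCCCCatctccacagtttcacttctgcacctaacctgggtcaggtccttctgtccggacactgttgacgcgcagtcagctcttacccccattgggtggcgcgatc
H2-D1: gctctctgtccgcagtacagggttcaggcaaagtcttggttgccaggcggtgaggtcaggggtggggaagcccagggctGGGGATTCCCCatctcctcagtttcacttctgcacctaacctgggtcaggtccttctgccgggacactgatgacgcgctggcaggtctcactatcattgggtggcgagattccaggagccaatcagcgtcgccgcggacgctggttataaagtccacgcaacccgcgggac
H2-Q6: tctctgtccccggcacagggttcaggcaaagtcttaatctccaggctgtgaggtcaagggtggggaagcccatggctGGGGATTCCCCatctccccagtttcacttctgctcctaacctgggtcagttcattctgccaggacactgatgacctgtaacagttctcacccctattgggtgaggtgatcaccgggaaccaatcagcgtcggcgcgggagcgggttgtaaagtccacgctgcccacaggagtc
H2-Q7: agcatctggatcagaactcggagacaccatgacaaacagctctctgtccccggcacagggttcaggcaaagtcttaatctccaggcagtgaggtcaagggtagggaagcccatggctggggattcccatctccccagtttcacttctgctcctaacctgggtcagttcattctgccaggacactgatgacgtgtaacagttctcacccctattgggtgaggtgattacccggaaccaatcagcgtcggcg
H2-T23: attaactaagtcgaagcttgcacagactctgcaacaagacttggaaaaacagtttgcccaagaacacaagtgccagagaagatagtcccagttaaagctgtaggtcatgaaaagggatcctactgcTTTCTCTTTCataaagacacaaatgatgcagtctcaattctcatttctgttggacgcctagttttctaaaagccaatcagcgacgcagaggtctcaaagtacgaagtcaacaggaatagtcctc
B2m: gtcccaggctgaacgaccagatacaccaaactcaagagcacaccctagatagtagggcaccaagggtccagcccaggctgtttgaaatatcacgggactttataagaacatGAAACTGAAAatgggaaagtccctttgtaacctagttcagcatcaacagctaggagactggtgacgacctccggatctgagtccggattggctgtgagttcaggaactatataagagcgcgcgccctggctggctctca
Psmb8: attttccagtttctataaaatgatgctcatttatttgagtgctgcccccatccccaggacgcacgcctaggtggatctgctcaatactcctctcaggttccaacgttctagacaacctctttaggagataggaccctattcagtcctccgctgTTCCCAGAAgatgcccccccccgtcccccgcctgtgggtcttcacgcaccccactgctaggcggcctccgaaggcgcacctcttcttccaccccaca

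All 10 members matched a RefSeq window of 250 bases before to 50 bases after a start. The kappa B letters occurred in 3 of the 10 members, H2-K1, H2-D1 and H2-Q6, and in 0.0304% of all 32851 windows. Only 10 windows held them, and 4 of those were windows of these 3 members, since H2-K1 has a pair of overlapping windows. The site is named for class I genes, so its presence in class I heavy chain genes is no independent result. The letters searched for the response element occurred in B2m and H2-T23, 2 of the 10 members, against 3.44% of all windows. No other form of the response element or the kappa B site was searched for. Windows without these letters were therefore not shown to lack either. The gamma-activated sequence occurred in Psmb8 alone among the members, against 8.3% of all windows. CCAAT was found in 9 of the 10 members and in 37.4% of all windows, and the letters TGACG in 6 members and in 20.8% of all windows. The windows of H2-Q6 and H2-Q7 were identical at 97.7% of 260 aligned bases, and those of H2-K1 and H2-D1 at 88.3% of 239. Tap1 and Psmb9 are transcribed away from each other, with starts 226 bases apart, so their windows shared 275 bases. These matches describe letters in a window and were not tied to the values that follow.

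The NTT library held 2975 cells with 19634099 UMIs, single molecules counted once by their barcode, and the RTT library 4840 cells with 44712071 UMIs. Median depth was 5398 and 8336 UMIs per cell. The authors had named 16 populations. Merged by name into classes, monocytes made up 54.3% of NTT and 4.11% of RTT cells, macrophages 19.6% and 82.8%, and dendritic cells 16.5% and 10.9%. The barcode sequences of 7 cells occurred in both libraries. Defining markers stood where the labels place them for DC3 (Ccr7, 2730 and 2462 CPM in NTT and RTT), cDC1 (Clec9a, 149.9 and 159.8 CPM) and cDC2 (Cd209a, 762 and 1166 CPM). The population labelled NK_cells also held T cell transcripts, with Cd3d at 1610 and 1318 CPM against 82.1 and 32.5 CPM for the NK receptor gene Ncr1. The complement gene C1qa, a macrophage marker, reached 1000 CPM in 59.5% of NTT and 44.4% of RTT Monocyte_1 cells and in 23.4% and 47.9% of Infl_Mono cells. Results in these populations are therefore given with and without such cells.

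All 10 members were lower in RTT than in NTT when UMIs were summed over all cells, and 9 of the 10 were at least 2-fold lower. Among the 8220 genes with at least 500 UMIs, 9.6% were at least 2-fold lower. The median log2 ratio of RTT over NTT was -1.57 for the members and 0.10 for all these genes. Together the members took 1.46% of NTT and 0.562% of RTT UMIs. Levels below are CPM, a gene's share of all UMIs of the summed cells scaled so that all genes together make 1000000, with exact Poisson 95% intervals. Ratios are log2 of RTT over NTT CPM with exact binomial 95% intervals. Such intervals hold the error of counting molecules and nothing of the variation from mouse to mouse.

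Among the 5 heavy chain members, the classical pair had the smallest gaps. H2-K1 stood at 2934 CPM (interval 2910.2 to 2958) in NTT and at 1032 CPM (1023 to 1042) in RTT, a log2 ratio of -1.51 (-1.52 to -1.49). H2-D1 stood at 3108 CPM (3084 to 3133) and 1422 CPM (1411 to 1433), a log2 ratio of -1.13 (-1.14 to -1.11). Neither pair of intervals overlapped, and the ratio of H2-K1 lay below that of H2-D1.

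The 3 non-classical members showed wider gaps. H2-Q6 was at 160.5 CPM (154.9 to 166.2) in NTT and 7.51 CPM (6.73 to 8.36) in RTT, 21.4-fold lower. For H2-Q7 the levels were 502 CPM (492 to 512) and 43.7 CPM (41.8 to 45.7), 11.5-fold lower. H2-T23, which encodes Qa-1, was at 384 CPM (376 to 393) and 83.3 CPM (80.7 to 86.0), 4.61-fold lower. Of all genes tested, 0.195% had a lower ratio than H2-Q6, 0.864% a lower one than H2-Q7 and 2.94% a lower one than H2-T23. The RTT value of H2-Q6 rested on 336 UMIs and no cell held over 2.98% of them.

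B2m, the light chain that every heavy chain needs, was at 5011 CPM (4979.8 to 5042) in NTT and 1928 CPM (1916 to 1941) in RTT, a log2 ratio of -1.38 (-1.39 to -1.36). Tap1 was at 342 CPM (334 to 350.3) and 78.7 CPM (76.1 to 81.3), a log2 ratio of -2.12 (-2.18 to -2.06). Tapbp was at 429.7 CPM (421 to 439) and 163 CPM (159 to 167), a log2 ratio of -1.40 (-1.44 to -1.35). The transporter gene thus stood further below its NTT level than the tapasin gene did.

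The immunoproteasome subunits differed in the size of the gap. Psmb9 was at 543 CPM (533 to 553) in NTT and 176 CPM (172 to 180.1) in RTT, a log2 ratio of -1.62 (-1.67 to -1.58). Psmb8 was at 1214 CPM (1199 to 1229.8) and 681 CPM (673 to 689), a log2 ratio of -0.83 (-0.86 to -0.81). Psmb8 was the only member short of a 2-fold difference in the sum over all cells.

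**Figure D1:**
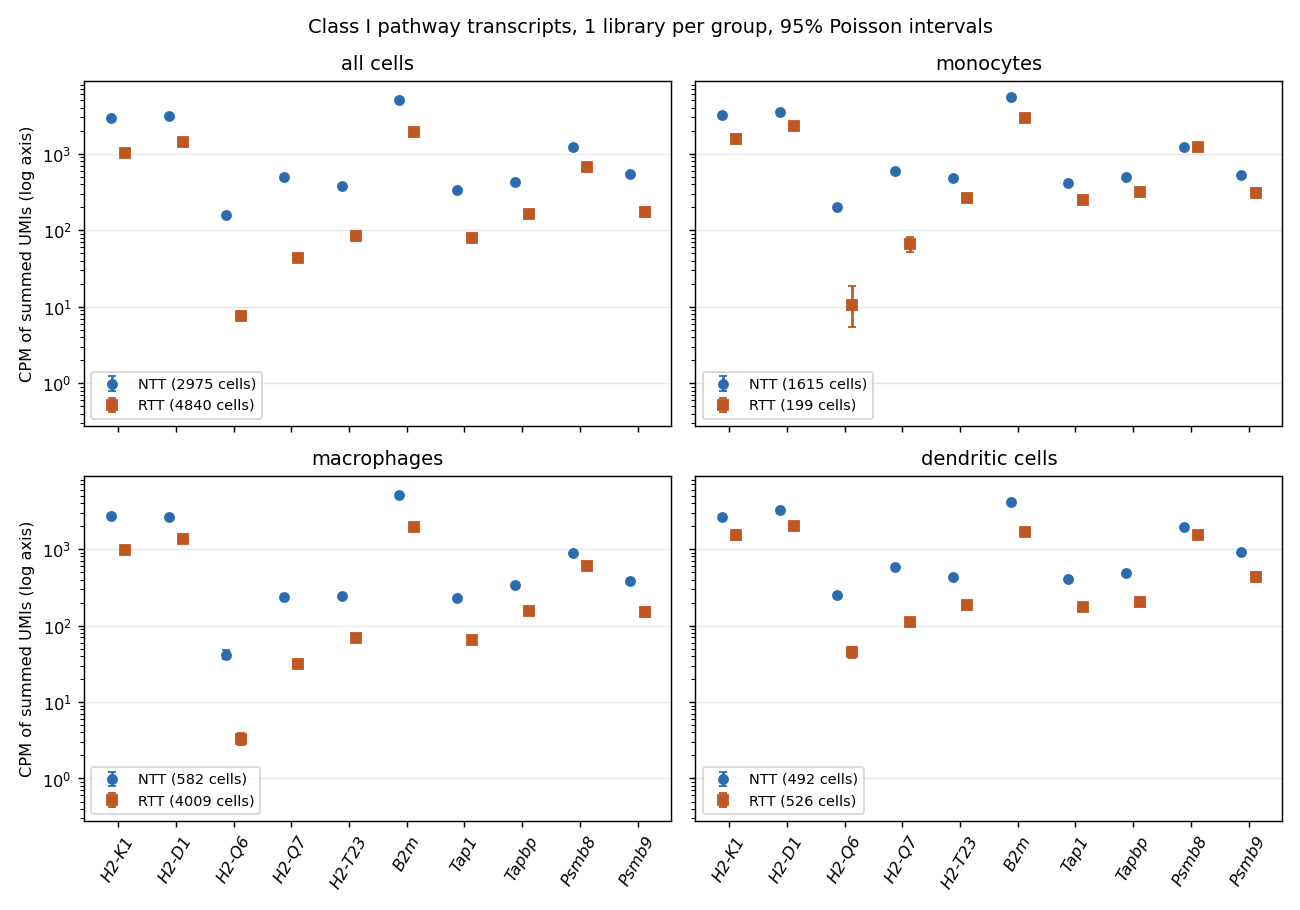
CPM of summed UMIs (log axis) of the 10 members in all cells, monocytes, macrophages and dendritic cells, with NTT as blue circles, RTT as orange squares and bars for exact Poisson 95% intervals, where 1 library stands behind each point. In all cells each orange square lies below its blue circle, by 21.4-fold for H2-Q6 and 1.78-fold for Psmb8, and in monocytes the Psmb8 points lie level at 1226 and 1232 CPM.

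A sum over all cells mixes the level per cell with the makeup of the sample, and the makeup differed between the libraries. Monocytes gave 48.7% of the members' UMIs in NTT and 4.20% in RTT, while macrophages gave 26.5% and 83.3%. The members were therefore compared within classes, where all 10 passed the minimum of 200 UMIs.

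In monocytes (1615 NTT and 199 RTT cells), 3 of the 10 members were at least 2-fold lower in RTT against 6.74% of 5326 genes. These were H2-K1, H2-Q7 and H2-Q6. The count was 2 without C1qa-high cells, where H2-K1 was at -0.85, and 2 with cells of at least 1500 genes. H2-K1 was at 3224 CPM in NTT and 1586 CPM in RTT, a log2 ratio of -1.02 (-1.09 to -0.95). H2-Q7 was at 594 and 66.2 CPM and H2-Q6 at 201 and 10.6 CPM, the latter on 12 RTT UMIs. The remaining heavy chains, B2m, Tap1, Tapbp and Psmb9 had log2 ratios of -0.92 to -0.61, with intervals below 0. Psmb8 was at 1226 CPM (1202 to 1249) and 1232 CPM (1168 to 1298), with a ratio of 0.01 (-0.07 to 0.09). The median log2 ratio was -0.84 for the members and -0.05 for all genes tested.

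In macrophages (582 and 4009 cells), 8 of the 10 members were at least 2-fold lower against 6.18% of 8888 genes, and the median log2 ratio was -1.44. Heavy chains ranged from -3.65 for H2-Q6 (41.8 and 3.33 CPM) to -0.97 for H2-D1 (2640.0 and 1346 CPM). B2m was at 5033 and 1919 CPM, Tap1 at 226 and 65.3 CPM and Tapbp at 339 and 155 CPM. Psmb9 was at 386 and 152 CPM and Psmb8 at 885 and 598 CPM. All 10 intervals lay below 0 in this class, and H2-D1 and Psmb8 were the members short of 2-fold. The populations that made up this class differed between the libraries. TAM_C1q held 17 NTT and 2001 RTT cells, and TAM_H2Ab1 held 169 NTT and 36 RTT cells. Within populations, median log2 ratios were -1.46 in TAM_cycling, -0.93 in TAM_C1q and -0.87 in TAM_Spp1. They were -0.46 in TAM_H2Ab1 and -0.18 in Macro (100 NTT and 26 RTT cells). Members at least 2-fold lower numbered 8 of 10 in TAM_cycling, against 4.34% of genes with at least 200 UMIs. In TAM_Spp1 they numbered 3, against 12.5%. The class values mix levels within populations with the change of makeup, and these were not split for this class.

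In dendritic cells (492 and 526 cells), the class with the most even cell numbers, 7 of the 10 members were at least 2-fold lower against 7.56% of 4407 genes. The median log2 ratio was -1.19. H2-Q6 (787 and 145 UMIs, 5.61-fold lower) and H2-Q7 (587 and 111 CPM) were lowest, at -2.49 and -2.40. B2m was at 4097 and 1670.4 CPM, Tapbp at 482 and 203 CPM, H2-T23 at 426 and 184 CPM, Tap1 at 401 and 177 CPM and Psmb9 at 906 and 428 CPM. These 5 genes had log2 ratios between -1.29 and -1.08. H2-K1 (-0.78), H2-D1 (-0.67) and Psmb8 (-0.37) were short of 2-fold, with intervals below 0.

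Within the named populations the size of the difference varied, and 8 populations held at least 50 cells in each library. In TAM_cycling (103 NTT and 947 RTT cells), the proliferating macrophages, 8 of the 10 members were at least 2-fold lower against 4.34% of genes with at least 200 UMIs. In cDC2 (279 and 413 cells), dendritic cells that present mainly to CD4 T cells, 7 were, against 6.71%. Median log2 ratios were -1.46 and -1.30. Of the 9 members that themselves passed 200 UMIs in TAM_cycling, 7 were past 2-fold. B2m, as an example, was at 4934 and 1831 CPM in TAM_cycling and at 3768 and 1577 CPM in cDC2.

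The monocyte populations showed narrower differences. In Infl_Mono (620 and 94 cells) 4 of the 10 members were at least 2-fold lower against 9.78% of genes, with a median of -0.92, and in Monocyte_1 (984 and 99 cells) 2 were, against 9.87%, with a median of -0.75. Leaving out cells with C1qa at or above 1000 CPM gave medians of -0.79 and -0.64 and 4 members in each. No share of all genes was computed for those reduced sets of cells. In Infl_Mono the 4 were not the same, as H2-T23 went from -1.13 to -0.59 and Tapbp from -0.88 to -1.05. In Monocyte_1 the 4 included H2-Q6, which had no RTT UMI left. H2-D1 in Monocyte_1 was at 3752 and 2884 CPM, a ratio of -0.38 (-0.46 to -0.30). With all cells kept this was the smallest gap of a heavy chain in both populations. H2-K1 in Monocyte_1 was at 3698 and 1952 CPM (-0.92). Without C1qa-high cells H2-D1 was at -0.45 in Monocyte_1. In Infl_Mono it went from -0.86 to -0.29 (-0.43 to -0.16), then the smallest gap.

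Counts were 3 of 10 in TAM_Spp1 (193 and 719 cells) against 12.5% of genes, 3 in cDC1 (78 and 56 cells) against 4.61%, 1 in DC3 (135 and 57 cells) against 5.45% and 1 in NK_cells (178 and 51 cells) against 5.51%. With TMM or median-of-ratios scaling the DC3 count was 3, and with H2-Q6 and H2-Q7 summed the NK_cells count was 0. Medians ran from -0.87 in TAM_Spp1 to -0.55 in NK_cells. H2-Q6 had under 200 UMIs in TAM_Spp1, TAM_cycling and cDC1, and H2-Q7 in cDC1, the minimum for the background. Among members past that minimum the counts were 2 of 9 in TAM_Spp1 and 1 of 8 in cDC1. In DC3, the Ccr7-expressing dendritic cells that carry antigen to lymph nodes, H2-K1 was at 3795 and 2790.0 CPM and H2-D1 at 4243 and 3203 CPM. These gaps were 1.36-fold and 1.32-fold, the smallest of the heavy chains in DC3. H2-Q7 was the DC3 member past 2-fold, at 1274 and 494 CPM. C1qa was 3.95-fold higher in RTT TAM_Spp1, 6.06-fold higher in RTT DC3 and 19.6-fold higher in RTT NK_cells. Under the alternatives run, H2-Q7 in TAM_Spp1 ran from -2.50 to -1.27 and H2-K1 there from -0.64 to -0.26. Without C1qa-high cells the DC3 median was -0.48 and H2-K1 in DC3 was at -0.29. In cDC1, which present dead-cell antigens to CD8 T cells, B2m was at 2093 and 889 CPM (-1.24) while Tap1 was at 454 and 327 CPM (-0.47).

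H2-Q6 had the lowest ratio of the members in 7 of the 8 populations, and H2-Q7 in DC3. Psmb8 had the highest ratio in all 8. It was 1.20-fold higher in RTT in Monocyte_1 (1242 and 1494 CPM, interval of the log2 ratio 0.16 to 0.37), 1.29-fold higher in TAM_Spp1 (520.2 and 672 CPM, 0.24 to 0.51) and 1.11-fold higher in cDC1 (2289 and 2530.0 CPM, 0.03 to 0.26). It was lower in RTT in TAM_cycling (1031 and 634 CPM, -0.70), cDC2 (1637 and 1248 CPM, -0.39) and Infl_Mono (1204 and 1005 CPM, -0.26). In DC3 (2334 and 2356 CPM) and NK_cells (1204 and 1288 CPM) its interval included 0. Without the C1qa-high cells the Infl_Mono value was -0.19 (-0.41 to 0.03), the DC3 value 0.20 (0.06 to 0.33) and the NK_cells value 0.18 (0.03 to 0.34). Psmb9 lay below 0 in all 8 populations, from -1.22 in TAM_cycling to -0.53 in Monocyte_1.

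**Figure D2:**
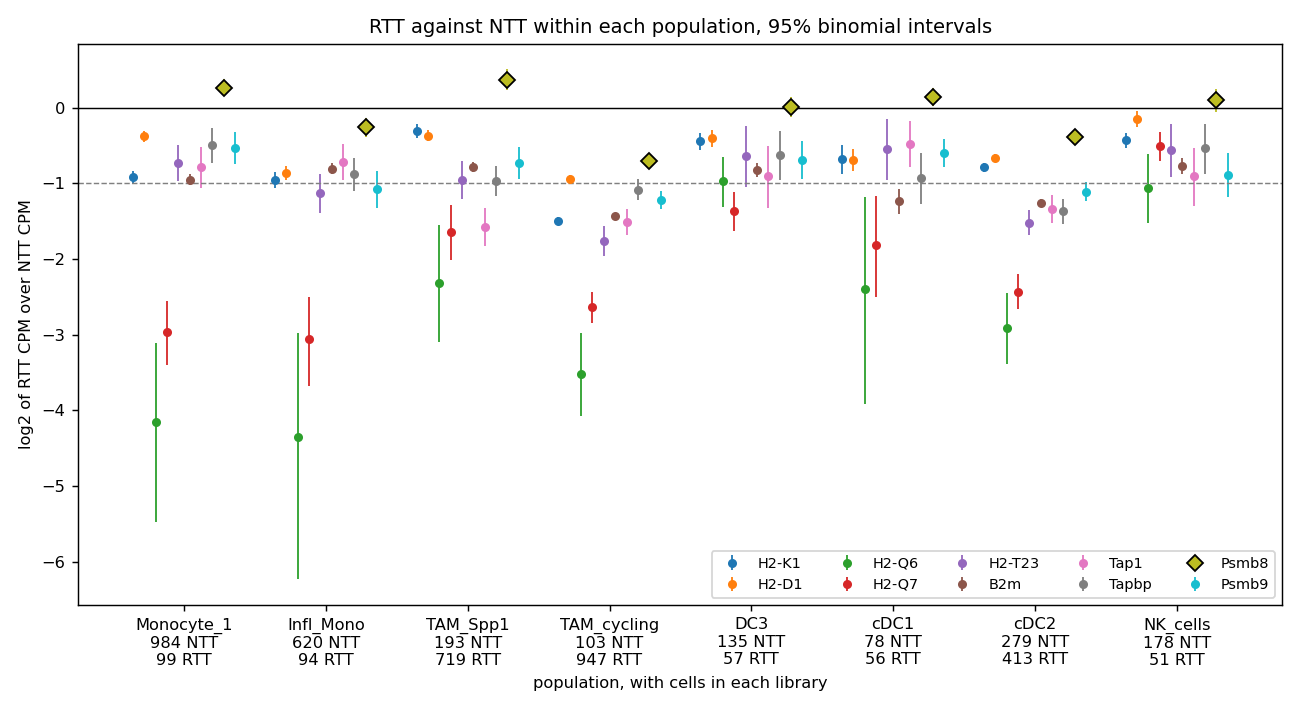
Log2 of RTT over NTT CPM (vertical axis) of each member within the 8 populations with at least 50 cells in each library, with bars for exact binomial 95% intervals and a dashed line at 2-fold lower. Psmb8, drawn as black-edged diamonds, is the uppermost point in every population (from -0.70 in TAM_cycling to 0.37 in TAM_Spp1), and H2-Q6, in green, reaches -4.35 in Infl_Mono.

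In NTT, 11 populations held at least 50 cells and their order differed by gene. These orders are descriptions, since the populations were clustered on genes that can include the members. DC3 was highest for H2-D1 (4243 CPM), H2-Q6 (630.2 CPM), H2-Q7 (1274 CPM) and Psmb8 (2334 CPM). TAM_H2Ab1 was highest for H2-K1 (3907 CPM) and B2m (6593 CPM), with intervals that overlapped those of DC3 (3795 and 6469 CPM). Infl_Mono was highest for H2-T23 (517 CPM), Tap1 (455 CPM) and Tapbp (574 CPM), overlapping cDC2 (512 CPM), cDC1 (454 CPM) and DC3 (529 CPM) in turn.

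The cDC1 population split the pathway. It was highest of the 11 for Psmb9 (1298 CPM, against 945 CPM in DC3, intervals apart) and not told apart from the highest for Psmb8 (2289 CPM), yet lowest for H2-K1 (1228 CPM), H2-D1 (1997 CPM) and B2m (2093 CPM). For H2-K1 and H2-D1 its interval overlapped that of TAM_Spp1, the next population up. In RTT cDC1 was highest for Psmb8 (2530.0 CPM), Psmb9 (857 CPM) and Tap1 (327 CPM) and lowest for H2-K1 (765 CPM) and B2m (889 CPM). The intervals for Psmb8 and Tap1 overlapped those of DC3 and Infl_Mono, and the one for H2-K1 that of Ctsk_Macro. In both libraries, then, cDC1 was highest for Psmb9 and lowest for B2m, with intervals apart from the next population.

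The RTT order, over 10 populations, had DC3 at the top for H2-K1 (2790.0 CPM), H2-D1 (3203 CPM), H2-Q6 (321 CPM), B2m (3659 CPM) and Tapbp (343 CPM). Its intervals for H2-K1, H2-D1 and Tapbp overlapped those of the next population. NK_cells was highest for H2-Q7 (749 CPM) and Monocyte_1 for H2-T23 (283 CPM), the latter not told apart from DC3 (237 CPM). Ctsk_Macro, macrophages named for the protease gene Ctsk and found only in RTT (280 cells), was lowest for Tap1 (42.5 CPM), Tapbp (97.3 CPM), Psmb8 (400.2 CPM) and Psmb9 (94.9 CPM). TAM_C1q, the largest RTT population with 2001 cells, was lowest for H2-Q6 (2.08 CPM, 38 UMIs, overlapping Ctsk_Macro) and H2-Q7 (23.9 CPM). Over these differing sets of populations, the spread between highest and lowest was wider in RTT than in NTT for each of the 10 members, from 2.17-fold to 7.69-fold for Tap1 and from 3.15-fold to 4.12-fold for B2m.

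All 10 members were higher in RTT Monocyte_1 than in RTT TAM_C1q, with log2 ratios of 0.53 to 2.68 and a median of 1.40. RTT TAM_C1q set against NTT Monocyte_1, the largest population of each tumour, gave log2 ratios of -6.83 to -1.09 and a median of -1.90. These population pairs are given for size only.

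**Figure D3:**
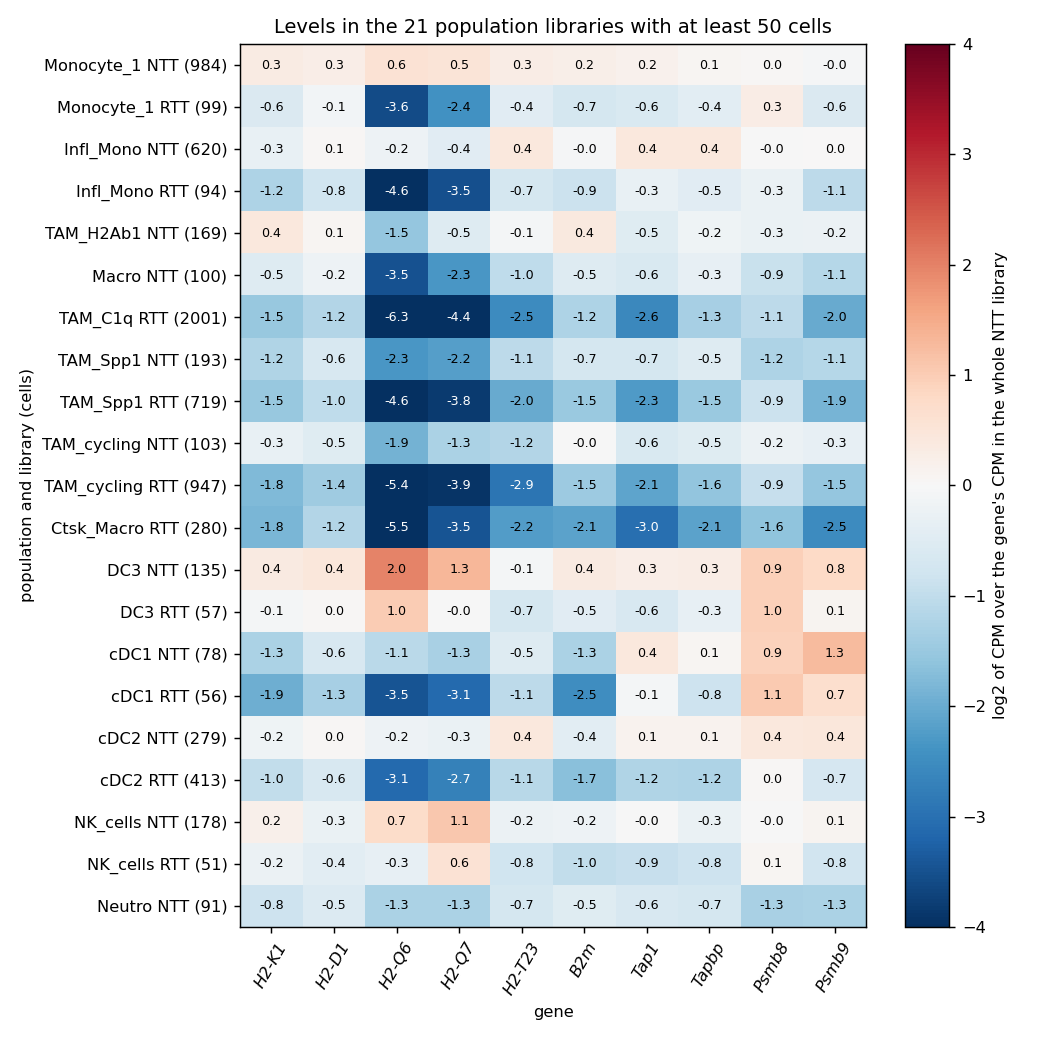
Log2 of each member's CPM in a population and library over its CPM in the whole NTT library, for the 21 combinations with at least 50 cells (cell numbers in parentheses), where red is above and blue below that level and values under -4 take the end colour. In the 8 populations shown for both libraries each RTT row lies below the NTT row for all members but Psmb8, and cDC1 rows are red for Psmb8 and Psmb9 and blue for H2-K1 and B2m in both libraries.

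The difference in the whole sample was split into a part from the populations' shares of UMIs and a part from levels within populations, with shares and levels averaged over both libraries. For the summed members, 14629 CPM in NTT and 5617 CPM in RTT, 43.9% of the difference came from shares. The part from shares was 30.3% for B2m, 40.4% for Tapbp, 43.8% for H2-K1, 48.3% for Psmb9, 50.4% for H2-D1, 52.8% for Tap1 and 55.0% for H2-T23. For H2-Q7 and H2-Q6 it was 40.6% and 45.4%. Psmb8 stood apart at 91.7%. By this split the gap in B2m lay mostly inside populations and the gap in Psmb8 mostly in their shares. With classes in place of populations the part for the summed members was 19.9%. The TAM_C1q level in NTT rested on 17 cells, and Ctsk_Macro, absent from NTT, was given its RTT level in both.

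**Figure D4:**
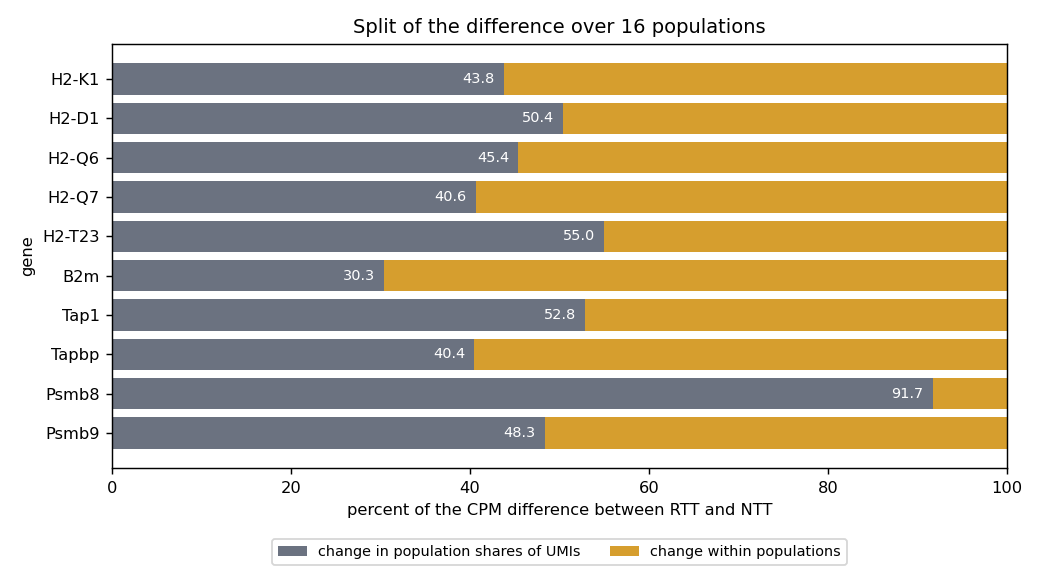
Split of each member's CPM difference between RTT and NTT, in percent, into the part from population shares of UMIs (grey, labelled) and the part within the 16 populations (yellow). Psmb8 is nearly all grey at 91.7%, and B2m has the shortest grey bar at 30.3%.

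Single cells were compared at equal depth by drawing 2000 UMIs from each cell, which left out 107 NTT and 63 RTT cells with fewer. The median cell had 28 UMIs of the 10 members in NTT (quartiles 19 and 39) and 11 in RTT (7 and 15). Without equal depth the medians were 77 and 44 UMIs. In monocytes the medians at equal depth were 31 and 18, in macrophages 21 and 10, and in dendritic cells 28 and 15. RTT was lower in 11 of the 11 populations with thinned cells of at least 20 in each library, by the least in Macro (20 and 19, with 26 RTT cells). DC3 had the highest medians of both libraries, 42.5 and 30.

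Most cells of both tumours kept a transcript of the major members. At 2000 UMIs, a B2m UMI was found in 99.5% of NTT and 94.0% of RTT cells, and an H2-D1 UMI in 98.7% and 90.9%. H2-Q7 was found in 48.3% and 7.31%, H2-Q6 in 24.1% and 1.36%, Tap1 in 49.9% and 14.3%, and Psmb8 in 82.7% and 70.3%. At full depth, where RTT cells were deeper, the shares were 41.3% and 4.36% for H2-Q6 and 94.3% and 95.7% for Psmb8. Class I genes are used by nearly all nucleated cells, so no population here gave the share that free RNA alone would produce.

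**Figure D5:**
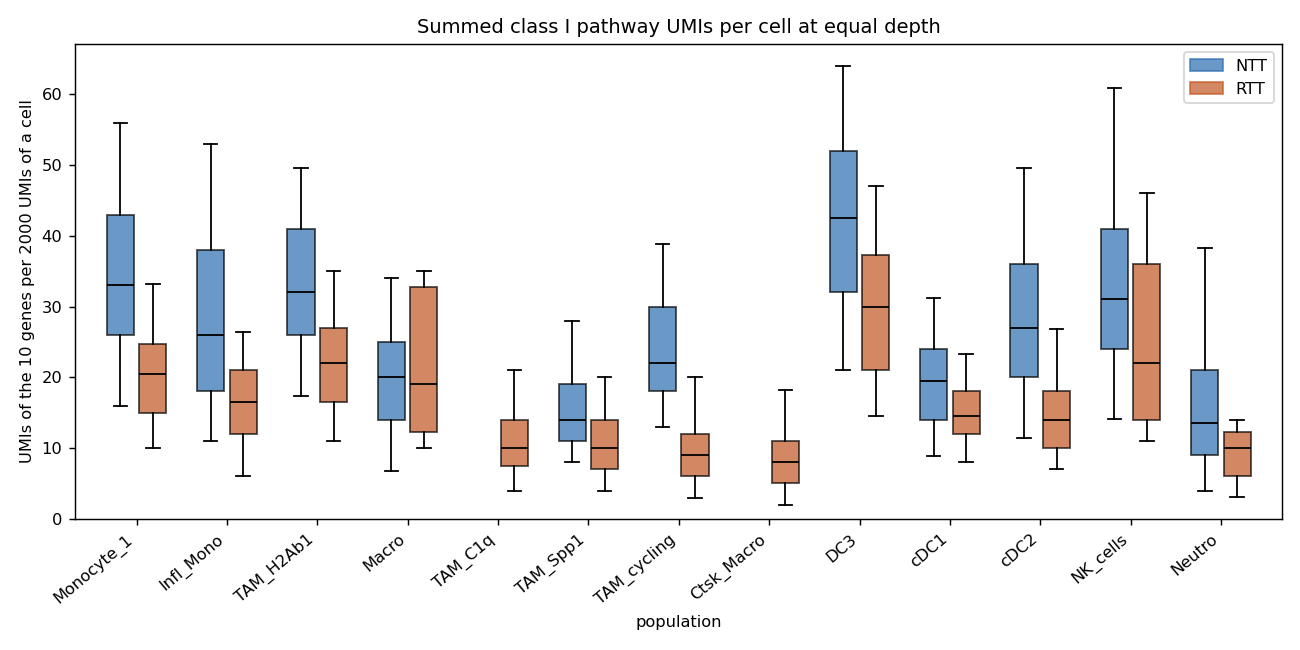
UMIs of the 10 members per 2000 UMIs of a cell (vertical axis) by population, NTT in blue and RTT in orange, where the line is the median, the box the quartiles and the whiskers the 5th and 95th percentile of cells, and groups under 20 cells are left out. DC3 stands highest (42.5 and 30), and the RTT boxes of TAM_C1q, TAM_Spp1, TAM_cycling and Ctsk_Macro centre on 8 to 10 UMIs.

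The constitutive proteasome genes differed from the members in their log2 ratios. In all cells these were 0.56 for Psmb5, 0.51 for Psmb6 and 0.00 for Psmb7, the 3 constitutive catalytic subunit genes. The 11 other core subunit genes had a median of 0.12. In both lists 0 genes were at least 2-fold lower. As 9.6% of all genes with at least 500 UMIs were, these counts alone say little. The ratio of Psmb8 to Psmb5 UMIs was 4.26 in NTT and 1.62 in RTT, a log2 change of -1.39 (-1.44 to -1.34). For Psmb9 over Psmb6 it was 1.59 and 0.362, a log2 change of -2.13 (-2.19 to -2.07). The third pair, Psmb10 over Psmb7, stood at 2.56 and 1.91, a log2 change of -0.42 (-0.50 to -0.34).

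Within classes the Psmb9 pair was lower throughout, by -1.39 in monocytes, -1.65 in macrophages and -1.15 in dendritic cells. The Psmb8 pair changed by -0.61, -0.97 and -0.72. The Psmb10 pair changed by 0.49 (0.20 to 0.79) in monocytes, -0.16 (-0.29 to -0.04) in macrophages and -0.13 (-0.37 to 0.10) in dendritic cells. In monocytes the 3 pairs therefore did not share a direction.

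Of 6 further genes of peptide transport and loading, 2 were at least 2-fold lower, against 9.6% of all genes tested. Tap2, the partner of Tap1 in the pump, was at 115 CPM in NTT and 37.2 CPM in RTT (-1.63), and Tapbpl, a peptide editor related to tapasin, at 46.3 and 17.3 CPM (-1.42). The general folding helpers of the endoplasmic reticulum had log2 ratios of 0.26 (Calr), 0.24 (Canx) and 0.22 (Pdia3) in all cells and of -0.16, -0.08 and -0.15 in macrophages, and the trimming enzyme gene Erap1 was at -0.12, with an interval that included 0. Psme1, part of the proteasome activator, was at -0.79. Of 12 further class I heavy chain genes listed, 5 were in the matrix and 3 passed 500 UMIs. Among these H2-T24 (-3.42) and H2-Q4 (-2.30) were past 2-fold, against 9.6% of all genes tested, and H2-M3 (-0.47) was not.

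Regulators of class I genes differed among themselves in all cells. Nlrc5, the class I transactivator, was at 49.8 CPM in NTT and 8.16 CPM in RTT (-2.61), Irf1 at 191 and 38.9 CPM (-2.30), and Irf8 at 429.7 and 205 CPM (-1.07). The NF-kappa B subunit genes Nfkb1 and Rela were at -0.87 and -0.23. Rfxap, a subunit of the complex that binds class I and class II promoters, was higher, at 0.57. Irf1 was at -1.67 in macrophages, -1.66 in dendritic cells and -1.04 in monocytes. Ifng itself was at 39.2 and 2.93 CPM (-3.74), while the receptor genes Ifngr1 (-0.01), Ifngr2 (0.53) and Ifnar2 (0.30) were level or higher. NK_cells, the population with T and NK cell transcripts, made up 5.98% of NTT and 1.05% of RTT cells. The part of that share in the Ifng value was not tested.

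Class II genes, which present to CD4 T cells, differed in direction from the members in cDC2 for 4 of the 5 listed. In all cells 4 of the 5 listed class II genes were at least 2-fold lower, against 9.6% of all genes tested. Examples were H2-Ab1 (7424 and 3606 CPM, -1.04) and the class II transactivator gene Ciita (-1.79). In dendritic cells H2-Ab1 was at 0.72, H2-Aa at 0.45, H2-Eb1 at 0.57 and Cd74 at 0.92, with intervals above 0, and Ciita at -0.15, with one below 0, beside a median of -1.19 for the class I members. The populations of this class differed. The median of the listed class II genes past 200 UMIs was 0.59 in cDC2, with 279 NTT and 413 RTT cells, 0.06 in cDC1 and -0.27 in DC3, where H2-Ab1 was at -0.19 (-0.28 to -0.10). In macrophages H2-Ab1 was at -1.21. In TAM_Spp1, however, 4 of the 5 class II genes were at least 2-fold higher in RTT, against 12.2% of genes, while 9 of the 10 class I members had intervals below 0. C1qa was also higher in RTT TAM_Spp1, at 1176 and 4641 CPM. Whether this label holds the same cells in both libraries was not tested.

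Genes for receptors of class I were lower in all 5 cases. The CD8 chains Cd8a and Cd8b1 were at -3.77 and -3.71, the Qa-1 receptor genes Klrc1 and Klrd1 at -4.15 and -2.08, and Pirb, an inhibitory class I receptor of myeloid cells, at -1.27. NK_cells, the population that held Cd3d, made up 5.98% of NTT and 1.05% of RTT cells, and the part of that share in these values was not tested. Within NK_cells, 3 of the 4 receptor genes past 200 UMIs were at least 2-fold lower, against 5.51% of genes. Their median log2 ratio was -1.23, against -3.71 for the 5 in all cells. Pirb was also lower within monocytes (-1.05), macrophages (-0.99) and dendritic cells (-0.84).

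Across the 16 combinations of the 8 populations and both libraries, the members' profiles of log2(CPM + 10) were compared as a description. The profiles share libraries and depth. Pearson r between pairs of members ranged from 0.03 for B2m and Psmb8 to 0.97 for H2-Q6 and H2-Q7, with a median of 0.70 over 45 pairs. Outside the members, genes with profiles most like their mean included Tap2 (r = 0.87), Psme2b (0.85), Irf1 (0.85) and Crybg1 (0.84). H2-Ab1 gave -0.09 and Psmb5 -0.41.

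Of the other genes with at least 500 UMIs in the same 2.12 Mb of chromosome 17, 11 of 66 (16.7%) were at least 2-fold lower, against 9.6% of all genes tested, with a median log2 ratio of -0.04. Without the other H2 genes and the listed pathway genes of the interval it was 5 of 54 (9.26%), with a median of 0.02.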

How the data were processed

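The authors built both libraries with 10x Genomics 3′ chemistry and, per the labels, processed them with Cell Ranger 6.1.1 against mm10. Ribosomal and mitochondrial genes had been taken out, as had genes not shared by several experiments. The methods state a minimum of 1000 genes per cell, which 2887 of 2975 NTT and 4793 of 4840 RTT cells passed in the matrix used here, and all cells were kept. Values are UMI counts as deposited, not normalized, whose column sums equalled the deposited totals in all 7815 cells, and 0 columns were left unused. Population names are the authors', given on clusters that also held cells from a second melanoma line. The record gives day 12, and the methods another day, for tumour harvest.

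Counts were summed per library over all cells, over classes merged by name (monocytes, macrophages, dendritic cells) or over populations, scaled to CPM, and compared (Python 3.11.15, scipy 1.17.1, pandas 2.3.3, numpy 2.4.6). With 1 tumour per group no test across samples was possible, cells were not used as replicates, and a difference was called at 2-fold. Genes needed 500 UMIs in all cells, or 200 in a class or population, to enter the background. Intervals were exact Poisson (levels) or Clopper-Pearson (ratios and shares), at 95%, and the calculation was tested on simulated data. The members and gene lists were chosen with earlier results of these data known. Text names the 10 members, the extremes of each list, partners and regulators of members, and the genes of most similar profile (the 5 with highest r), except for an item that is not reported here. The study's own monocyte lists, drawn from a map that includes these cells, hold most members. Doublets were not called. Promoter windows came from RefSeq (GRCm38.p6), and proteins were not used here. Alternative scalings used edgeR 4.0.16 (TMM) in R 4.3.3 and a median-of-ratios size factor, and other alternatives changed the cells kept.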

Additional observations from a re-analysis of the deposited data

Results flagged for a closer look

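Psmb8 is listed because its RTT to NTT ratio, on the log2 scale, lay on opposite sides of 0 in different populations, past the counting intervals. The values were 0.37 in TAM_Spp1, 0.27 in Monocyte_1 and 0.14 in cDC1, against -0.70 in TAM_cycling, -0.39 in cDC2 and -0.26 in Infl_Mono. With 1 library per group the difference between populations was not tested. Under the alternatives run, the value of each of these 6 populations kept its sign, within 0.33 to 0.47 for TAM_Spp1 and -0.74 to -0.65 for TAM_cycling. The Infl_Mono interval included 0 once C1qa-high cells were left out. No other member had intervals on both sides of 0 among the 8 populations with at least 50 cells in each library.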

How the results depend on the processing

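The counts of members at least 2-fold lower in all cells and in the 3 classes stayed within 1.5 times under every alternative run, and the medians kept their sign. The median log2 ratio in all cells was -1.60 with TMM, -1.60 with median-of-ratios factors, -1.47 with the mean of per-cell CPM and -1.51 with H2-Q6 and H2-Q7 summed. In macrophages it was -1.22 with the mean of per-cell CPM, -1.39 with that sum and -1.52 leaving out macrophages with no C1qa UMI. The part from population shares was 50.2% at NTT levels, 37.5% at RTT levels and 19.9% over merged classes. Members per cell were 14 and 5 (NTT and RTT) at 1000 UMIs and 77 and 44 without thinning. TMM shifted all ratios by -0.14 in DC3 and -0.12 in Infl_Mono, and the DC3 count was 3 instead of 1 with TMM or median-of-ratios factors and 2 with cells of at least 1500 genes. Without C1qa-high cells the Monocyte_1 count went from 2 to 4, with H2-Q6 at 0 UMIs in RTT. With H2-Q6 and H2-Q7 summed it was 1, and the NK_cells count went from 1 to 0. These population alternatives were chosen after seeing the data. Of 120 values of single members, 3 changed sign somewhere: Psmb8 in monocytes (-0.02 to 0.07) and DC3 (-0.14 to 0.20), and H2-D1 in NK_cells (-0.22 to 0.02). With no minimum UMI count, 2037 genes (16.2%) were at least 2-fold lower, against 789.

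No paired analysis was possible because each group held 1 library, so leaving out a replicate was not run either. Populations under 100 RTT cells and H2-Q6, at 4 to 12 RTT UMIs in monocytes, have wide counting intervals.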
